A study of Mus musculus with 14 samples.

Results

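The nuclear-encoded respiratory chain genes are the genes of the cell nucleus whose proteins, once imported into mitochondria, form or help to build the complexes of oxidative phosphorylation. Members were taken by symbol alone: Nduf for complex I, Sdha to Sdhd and their assembly factors for complex II, Uqcr for complex III, Cox4 to Cox8 for complex IV and Atp5 for ATP synthase. The rule found 98 members among 30436 features, after 1 pseudogene was left out. They comprise 37 subunits and 8 assembly factors of complex I, 4 and 4 of complex II, 8 genes of complex III, 20 of complex IV and 17 of ATP synthase. Ndufa4 and its paralog Ndufa4l2 carry a complex I symbol and are described here with complex IV, where the Ndufa4 protein is now placed. Of the 98, 90 passed the filter on low counts, against 12300 of all features.

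RNA was sequenced from 14 liver or liver tumour samples of male C3HeB/FeJ mice, a strain with spontaneous liver tumours, labelled 18 months old throughout. Animals were checked for tumours at 10 months and then injected on 5 days of each 28-day cycle for 6 cycles. The 4 Normal livers received phosphate citrate buffer. Of the 6 tumours labelled Grow, 1 and 5 received DMSO, 2, 3 and 4 received SAHA + TMZ (the histone deacetylase inhibitor suberoylanilide hydroxamic acid at 85 mg/kg with the DNA-alkylating drug temozolomide at 22 mg/kg), and 6 received SAHA at 100 mg/kg. Of the 4 tumours labelled Regress, 1 and 3 received TMZ at 31 mg/kg, 2 received buffer and 4 received DMSO. How growth or regression was scored is not stated in the labels, and treatments differ between the groups, so the 2 cannot be told apart. The labels do not say that each sample is a separate animal, and Normal 4 and Regress 2 carry the same code, so p-values here speak only to the scatter among the samples.

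In the respiratory chain, complex I takes electrons from NADH and complex II from succinate, complex III passes them to cytochrome c, complex IV passes them to oxygen, and ATP synthase uses the proton gradient that results. Complex II is entirely encoded in the nucleus, whereas the other complexes combine nuclear subunits with subunits made inside the mitochondrion. Hepatocytes are rich in mitochondria and rely on the chain for the ATP that urea synthesis and gluconeogenesis consume. Most of the nuclear subunits are small proteins, so their messenger RNAs are short.

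Promoters of this gene group are known for sites of the regulators NRF1, YY1, GABPA (of the ETS family) and ESRRA. RefSeq promoter sequence of the assembly GRCm38.p6, from 250 bases before to 50 after the annotated start, was matched to 81 of the 98 members. The NRF1 core, a palindrome shown in capitals in the windows, was found in 7 of the 81 (8.64%), against 1.07% of 27025 genes and 2.38% of the 9214 tested genes with a promoter. The YY1 motif AAGATGGC on either strand was found in 11 members (13.6%), against 5.39% of tested genes. The ETS motif CGGAAG was found in 38 (46.9%), against 35.3%, and the ESRRA motif AAGGTCA in 8 (9.88%), against 4.23%. The windows show the shared element in members of 4 complexes, 5′ to 3′ on the strand of the gene, with the motif in capitals: the NRF1 core in Ndufa11 (chr17:56717692-56717721, plus strand), Uqcrc1 (chr9:108936668-108936697, plus strand), Cox6a1 (chr5:115349101-115349130, minus strand) and Atp5k (chr5:108434430-108434459, minus strand), and the YY1 motif in Atp5j (chr16:84835046-84835075, minus strand) and Ndufa9 (chr6:126849097-126849126, minus strand).
Ndufa11: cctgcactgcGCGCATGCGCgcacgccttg
Uqcrc1: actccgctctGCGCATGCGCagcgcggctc
Cox6a1: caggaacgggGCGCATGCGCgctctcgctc
Atp5k: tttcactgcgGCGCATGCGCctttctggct
Atp5j: aaagtgtaggaAAGATGGCggagtcttagc
Ndufa9: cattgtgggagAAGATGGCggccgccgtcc
Relative to the annotated start, the motifs centre at -56 (Ndufa11), -158 (Cox6a1), -46 (Atp5k) and -84 (Atp5j). Those of Uqcrc1 (34) and Ndufa9 (32) lie after the start, in transcribed sequence. The YY1 matches in Atp5j2, Ndufa3 and Ndufc1, each at 26, do so too. These matches describe letters in a window and do not show that a factor was bound. A list of 14 regulators of mitochondrial gene expression included Nrf1, Yy1, Gabpa and Esrra. None of the 14 was called in any comparison as counted, against 0% to 2.32% of all features. With the length correction described later none was called either, against 0% to 5.81%.

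Libraries held 4707063 to 13394301 estimated counts, of which the members took 0.598% (Regress 4) to 2.12% (Regress 1). Hepatocyte markers summed to between 38938 and 227315 CPM, the lowest and the highest in Grow. CPM here are estimated counts scaled to a common total, after each library total was multiplied by its TMM factor from edgeR. Of 7 striated muscle markers, Acta1, Myh4, Myh7 and Tnnt3 were at 0 in every library. The others were detected at low levels, with at most 1.29 CPM for Mylpf, 0.553 for Actc1 and 0.515 for Ckm. Ucp1 of brown fat was at 0 in every library, and the other adipocyte markers are given below with Cox7a1. Stellate cell and matrix markers summed to between 30.5 and 61.4 CPM in Normal and Grow but reached 706 CPM in Regress 4. Most of the latter was Col1a1, Col1a2 and Col3a1 (186, 201 and 266 CPM), with the stellate marker Lrat at 11.0. Lrat had 12.7 to 26.3 CPM in Normal and 1.90 to 13.1 in Grow, whereas Col1a1 had 0.351 to 1.64 and 2.24 to 9.59. Cholangiocyte markers reached 97.9 CPM in 1 Regress tumour, Regress 3, mostly Epcam (56.4) and Krt19 (34.8). Krt7 (1.55) and Sox9 (5.15) were low there, and Sox9 was highest in Regress 4 (23.7). Of 5 endothelial markers, 2 were called higher in tumours and none lower, against 2.32% of features called in either direction. The 5 did not all move that way. Clec4g had 39.4 to 70.1 CPM in Normal, 21.0 to 41.1 in Grow and 16.9 to 90.1 in Regress. The 5 summed to 92.5 to 120.2 CPM in Normal, 68.3 to 158 in Grow and 109 to 159 in Regress. The part of these cell types in the members' values was not tested. Fewer cells of a type and less RNA per cell cannot be told apart in such bulk samples.

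Of subunits that exist in several tissue forms, the forms known from liver were the abundant ones. Per kilobase of transcript, the highest mean levels in Normal liver were those of Ndufa4 (693 CPM per kilobase), Cox4i1 (656), the catalytic ATP synthase subunit Atp5b (572) and Atp5e (512). These are means as counted, and their order did not hold in every liver. Normal 2 minus Normal 3 (log2 CPM) was 3.41 for Ndufa4, 2.67 for Cox4i1 and 4.21 for Atp5e, but -0.22 for Atp5b. Cox7a1, the heart and muscle form of a small complex IV subunit, stood at 2.25 CPM per kilobase in Normal liver, against 232 for its widely expressed counterpart Cox7a2. Cox6a2 (muscle) was at 0 in 9 libraries with at most 3.34 estimated counts, where Cox6a1 had 819 to 2705. Cox4i2, a lung and hypoxia form, did not exceed 1.14 counts, and Cox8b did not exceed 1.13.

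The 8 members that did not pass the filter were Cox4i2, Cox6a2, Cox6b2, Cox7b2, Cox8b, Cox8c, Ndufa4l2 and Atp5g2. Cox7b2 and Cox8c were at 0 in all 14 libraries. Atp5g2, which encodes the same mature c subunit of ATP synthase as Atp5g1 and Atp5g3, was at 0 in all but Grow 5 (3.72 counts). Ndufa4l2, a hypoxia-inducible paralog of Ndufa4, had 0 to 13.5 counts. Cox5b, a subunit expected in every cell with complex IV, passed with only 7.17 to 58.8 counts. Counts of genes with near-identical copies can be split between them, so the levels of Cox5b, Atp5g2 and the copy Ndufb4b are uncertain.

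The members moved together from library to library, and they did so within each group. Each library's deviation was taken as the median over the 89 tested members with a known transcript length of log2 CPM minus the gene's mean over all 14 libraries. It was 0.25, 0.96, -0.97 and 0.25 in Normal 1 to 4. In Grow the lowest was -1.01 (Grow 2), the median -0.32 and the highest 0.20, and in Regress 1 to 4 it was 1.36, 0.53, 0.62 and -1.18. The lowest Normal liver was thus as low as the lowest Grow tumour, and the Regress group held both extremes. Regress 1 was the highest library for 68 of 89 members and Regress 4 the lowest for 49.

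The same libraries differed in how their values depended on transcript length over all genes. Tested members had a median transcript length of 809 bases, with 60.7% under 1000 bases, against 2924 bases and 6.03% for all tested features with a length. Their GC content was like that of other genes (medians 50.8% and 50.2%). The slope of log2 CPM deviation on log2 length over 11423 genes ran from -0.48 per doubling of length in Regress 3 to 0.45 in Normal 3. A positive slope means that short transcripts were low in that library. The 5 libraries with the highest slopes (Normal 3, Grow 2, Regress 4, Grow 5 and Grow 6) were the 5 in which the members were lowest. The slopes include the members themselves among the genes, and the groups overlapped in slope: -0.26 to 0.45 in Normal, -0.14 to 0.42 in Grow and -0.48 to 0.39 in Regress.

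**Figure D1:**
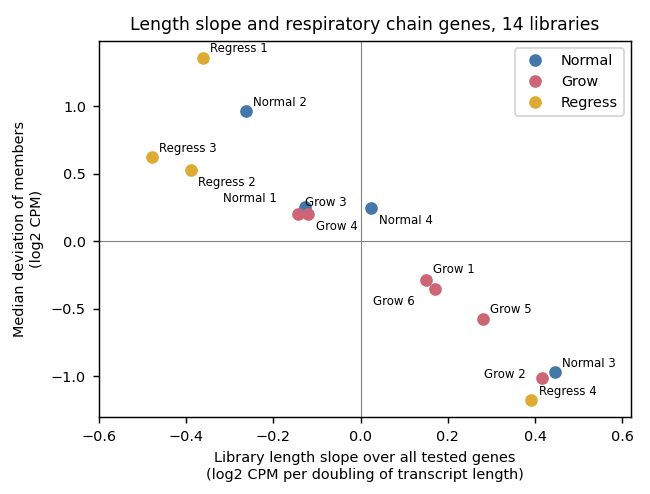
Median deviation of 89 respiratory chain genes (y axis, log2 CPM) against each library's slope of expression on transcript length over 11423 genes (x axis, log2 CPM per doubling of length), 1 point per library, coloured by group. The libraries with the highest slopes, such as Normal 3 and Regress 4, have the lowest members. Normal 4, with a slope of 0.02, has members at 0.25, like Normal 1.

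Pairs of libraries from 1 group show the size of this. Between Normal 2 and Normal 3, both buffer-treated normal livers, 80 of 89 members were higher in Normal 2, with a median difference of 1.89 on the log2 scale. By transcript length, the median difference was 2.18 over the 54 members under 1000 bases and 1.03 over the 20 of 1500 bases or more. Coding length separated the members further: the median was 2.02 over the 77 with coding sequences under 1000 bases and -0.27 over the 12 longer ones. Between Regress 1 and Regress 4 the medians were 2.83 and 1.55 by transcript length, and 2.67 and 0.55 by coding length. Atp5e, a subunit of 156 coding bases, had 182, 482, 25.7 and 172 CPM in Normal 1 to 4. Ndufs1, the largest subunit of complex I with 2181 coding bases, had 79.5, 55.9, 114 and 101. The short gene was lowest in Normal 3 and the long one highest there.

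**Figure D2:**
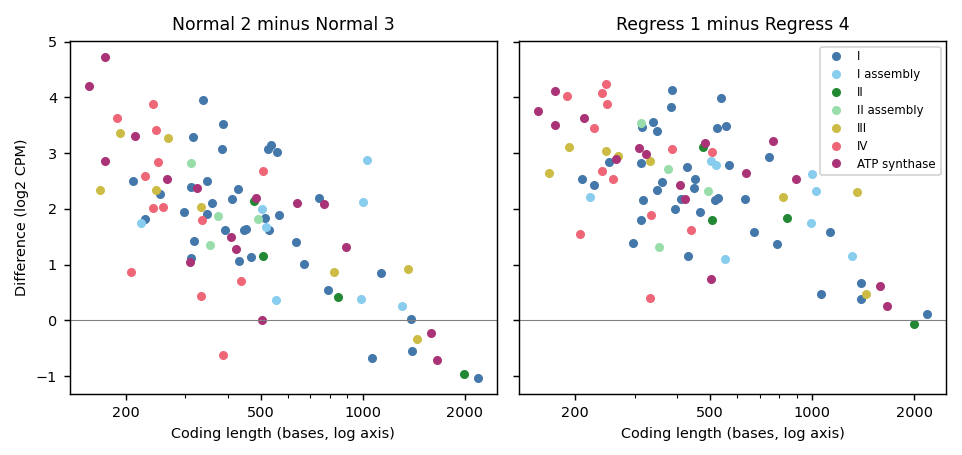
Difference in log2 CPM of each of 89 members (points, coloured by complex) between Normal 2 and Normal 3 and between Regress 1 and Regress 4, against coding length in bases on a log axis. Median differences are 2.02 and 2.67 over coding sequences under 1000 bases and -0.27 and 0.55 over the longer ones, with members of like length spread widely.

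A smooth curve of expression on transcript length was therefore fitted in each library and removed, and every comparison is given both as counted and with the length trend removed. Removal lowered the SD of the library medians from 0.76 to 0.19. The median SD of a member over the 14 libraries went from 0.81 to 0.37, with a lower SD for 80 of 89 members, while over all features it went from 0.58 to 0.50. The library medians then were 0.08, 0.23, 0.13 and 0.28 in Normal 1 to 4 and -0.18 to 0.05 in Grow, so that every Grow library lay below every Normal one. In Regress they were 0.35, -0.10, -0.01 and -0.35, still the widest group. Removal acted mainly on members with short transcripts. Between Normal 2 and Normal 3 the median difference was then 0.02 under 1000 bases but 0.97 at 1500 bases or more. Between Regress 1 and Regress 4 these medians were 0.58 and 1.68. Removing a curve also removes any difference of biological origin that runs with length, and which part of the trend was technical was not tested.

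**Figure D3:**
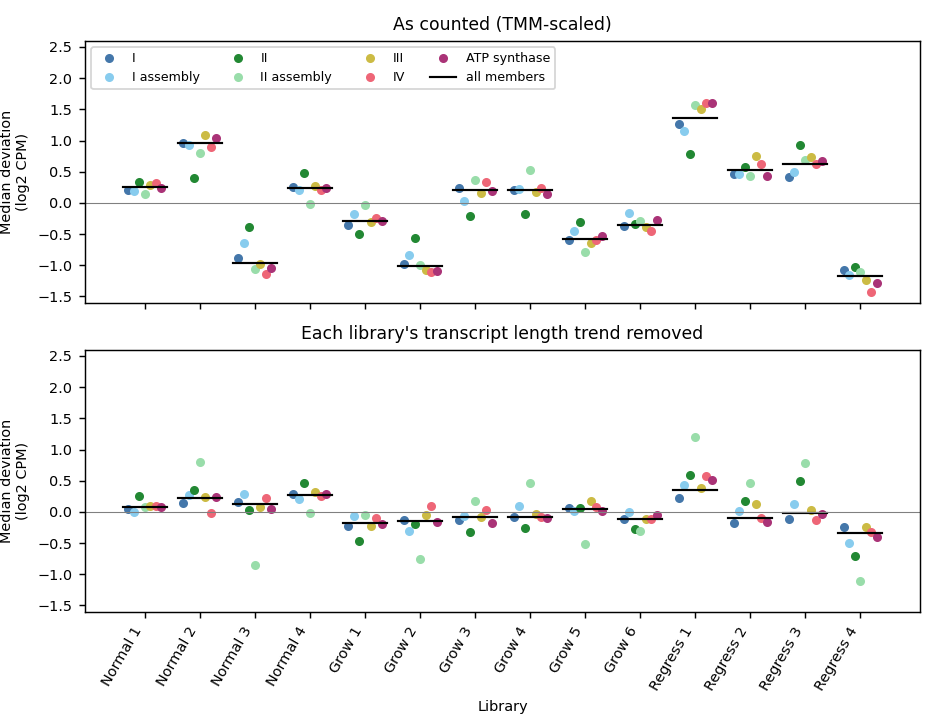
Median deviation from the gene mean (log2 CPM) of the members of each complex (coloured points) and of all 89 members (black bars) in the 14 libraries, as counted (top) and with each library's length trend removed (bottom). As counted, the complexes share the swings from -1.18 in Regress 4 to 1.36 in Regress 1. With the trend removed, the bars lie between -0.35 and 0.35.

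In tumours against Normal liver, where both tumour groups were given equal weight, no member was called by edgeR's quasi-likelihood test at an adjusted p under 0.05, against 2.32% of all features tested. DESeq2 and limma-voom also called 0, against 8.61% and 1.03% of features, and 1 member had an unadjusted p under 0.05 by edgeR, against 18%. Estimates were lower in tumours for 65 of 90 members, with a median log2 fold change of -0.11 beside 0.01 over all features. This median turned to 0.22 without Normal 2 and to 0.03 without Regress 4, and was -0.35 without Normal 3, -0.33 without Regress 1, -0.18 without Grow 3 or Grow 4 and -0.064 without Grow 2. With the length trend removed, 74 of 89 estimates were lower, the median was -0.20, and 2 of 89 members were called lower. That is close to the share of all features called lower, 2.17%, with 5.81% called in either direction. An unadjusted edgeR p under 0.05 was reached by 16 of 89, a smaller share than the 22.1% of features. The 2 called members were accessory subunits of complex I, Ndufb7 and Ndufa12, and were singled out after their values were seen.

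Ndufb7 sits in the membrane arm of complex I. As counted it had 86.0, 107, 23.6 and 69.2 CPM in Normal 1 to 4, 23.5 to 53.1 with a median of 37.3 in Grow, and 108, 63.5, 75.5 and 23.8 in Regress. Corrected for length, the values were 84.0, 64.6, 64.4 and 80.2 in Normal, 45.2 to 56.0 with a median of 48.2 in Grow, and 52.8, 43.2, 50.9 and 52.9 in Regress. All 10 tumours then lay below all 4 Normal livers, which as counted they did not. The log2 fold change was -0.57 ± 0.13 (SE, edgeR adjusted p = 0.0287). It passed in tumours with Normal 2 or any 1 tumour left out, but not without Normal 1, 3 or 4, where no member was called.

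Ndufa12, in the peripheral arm, had 55.8, 47.3, 77.0 and 74.2 CPM in Normal 1 to 4 with the trend removed. Grow tumours had 34.7 to 57.0 with a median of 39.9, and Regress 1 to 4 had 40.1, 26.8, 25.9 and 39.1. The Regress tumours lay below all Normal livers, and Grow 5 overlapped them. The log2 fold change was -0.76 ± 0.19 (edgeR adjusted p = 0.0323), and as counted -0.59 ± 0.36 (adjusted p = 0.454). The call was lost without Normal 1, 3 or 4, Grow 6, or Regress 2 or 3. With coding length in place of transcript length Ndufa12 alone was called in tumours, against 1.85% of features called lower. With length and GC content together Ndufa12 and Ndufaf1 were called lower in tumours, against 2.75%, and in Regress, against 0.578%. The assembly factor Ndufaf1, which acts early in building complex I, came next at -0.61 ± 0.17 (adjusted p = 0.0508), with all 10 tumours below all Normal livers. Ndufb7 and Ndufaf1 were thus the 2 of 89 members with no overlap, against 1.26% of features lower without overlap.

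**Figure D4:**
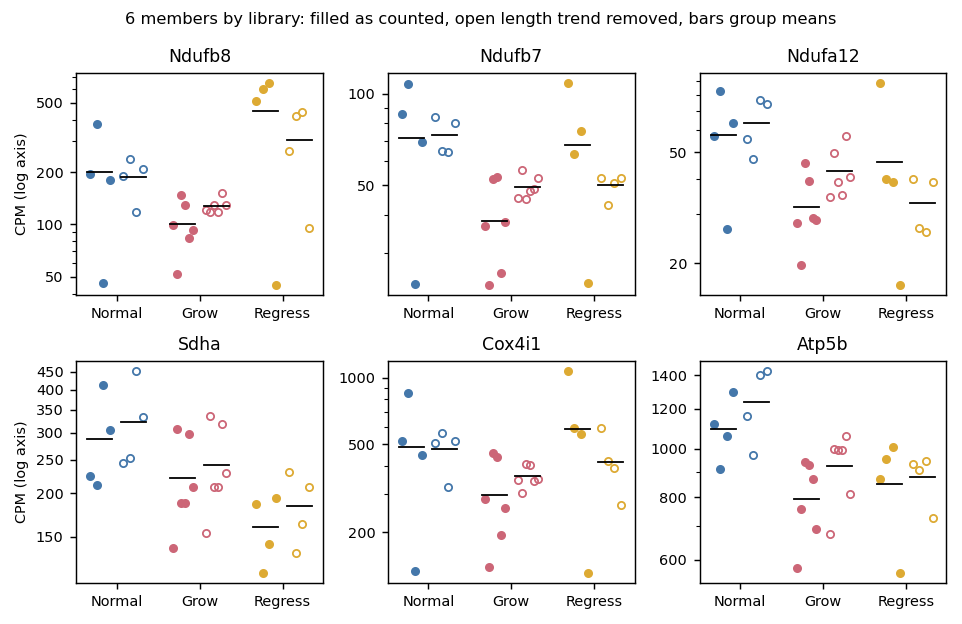
CPM on a log axis of 6 members in the 4 Normal, 6 Grow and 4 Regress libraries, filled as counted and open with the length trend removed, with bars at group means. With the trend removed, Ndufb7 lies below Normal in every tumour, and Ndufb8 is highest in Regress 2 and 3.

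In Grow tumours against Normal liver, 88 of 90 estimates were lower, with a median log2 fold change of -0.52 beside 0.00 over all features, and of -0.22 without Normal 2. None was called by edgeR, against 1.76% of features. DESeq2 called Uqcrc1 alone, as lower, against 2.99% of features called lower and 8.27% in either direction, limma-voom called 0, against 0.756%, and 6 members had an unadjusted edgeR p under 0.05, against 16.6%. Medians by complex were close, at -0.54 for complex I, -0.60 for II, -0.55 for III, -0.59 for IV and -0.53 for ATP synthase. Sdhb and Atp5d were lower in all 6 Grow tumours than in every Normal liver, 2 of 90 members against 4.28% of features.

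With the length trend removed the Grow median was -0.30 and 81 of 89 estimates were lower. Of the 89, 1 member, Ndufb7, was called lower (-0.58 ± 0.15, edgeR adjusted p = 0.0383). This is a smaller share than the 1.83% of features called lower, with 4.74% in either direction. An unadjusted p under 0.05 was reached by 11, against 20.6%. The call was lost without any 1 of Normal 1 to 4 or of Grow 1, 3, 4, 5 and 6. Without overlap, 11 of 89 members were lower in Grow than in Normal, against 5.57% of features. They were Ndufa9, Ndufa11, Ndufb7, Ndufs6, Ndufs8, Ndufaf1, the Rieske protein Uqcrfs1, Cox6c, Atp5c1, Atp5g1 and Atp5h, so complexes I, III, IV and ATP synthase were represented. Uqcrfs1 had 208, 237, 234 and 248 CPM in Normal 1 to 4 and 162 to 198 in Grow, a narrow gap (-0.36, adjusted p = 0.404).

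In Regress tumours against Normal liver the direction depended on the length trend. As counted, 75 of 90 estimates were higher, with a median of 0.30 beside 0.03 over all features, and with library totals in place of TMM factors 56 of 90 were. After removal of the trend, 60 of 89 were lower and the median was -0.16. As counted, edgeR, DESeq2 and limma-voom each called 0 members, against 0.0244%, 5.81% and 0% of features, and 2 had an unadjusted edgeR p under 0.05, against 16.2%. After removal edgeR called 0, against 1.34%, and 9 had an unadjusted p under 0.05, against 19.1%. The lowest adjusted p was that of Ndufa12 (-0.95 ± 0.23, adjusted p = 0.0569). Lower without overlap were 1 of 90 members as counted (Sdha), against 3.2% of features, and 5 of 89 with the trend removed (Sdha, Atp5b, Ndufa12, Ndufaf1 and Ndufb7), against 3.79%.

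The median depended on single libraries. As counted it was -0.18 without Regress 1, 0.61 without Regress 4, 0.65 without Normal 2 and 0.065 without Normal 3, and 0.090 with library totals. With the trend removed it was -0.37 without Regress 1, -0.063 without Regress 4 and -0.096 without Normal 4. In the fit with the trend removed and without Regress 1, 7 members fell, Ndufa9, Ndufa11, Ndufa12, Ndufb7, Ndufs6, Ndufaf1 and Cox6c, which is 7 of 89 beside 3.29% of all features called lower. In tumours against Normal liver the same omission gave 9 of 89, beside 5.42% of features, adding Atp5o and Ndufb5.

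In Regress against Grow tumours, 87 of 90 estimates were higher, with a median log2 fold change of 0.83 beside -0.01 over all features. It was 0.40 without Regress 1, and 0.46 with library totals in place of TMM factors. No member was called by edgeR, DESeq2 or limma-voom, against 0%, 0.253% and 0% of features. At an unadjusted p under 0.05 there were 18 of 90 members, against 10% of features. The median was 0.90 over the 77 members with coding sequences under 1000 bases and 0.26 over the 12 longer ones. After removal it was 0.10 over all 89, with 56 higher, and 0.11 and 0.03 over the short and long coding sequences. By edgeR 0 were then called, against 0% of features, and 5 had an unadjusted p under 0.05, against 8.34%. Without Regress 4, 17 of 90 members were called higher as counted, against 4.77% of all features called higher, and 3 of 89 (Ndufb8, Sdhc and Atp5c1) with the trend removed, against 2.07%. All 17 are listed here by complex: Ndufa5, Ndufa13, Ndufb8, Ndufs5, Ndufs8, Ndufv1, Ndufaf3 and Ndufaf6 of complex I, Sdhb, Sdhc and Sdhd of II, Uqcrc2 and Uqcr11 of III, Cox5a and Cox8a of IV, and Atp5c1 and Atp5g1 of ATP synthase. The comparisons share samples, so their values are not independent of each other. Regress 4 was also the library with the high matrix markers, whose part in the result was not tested.

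**Figure D5:**
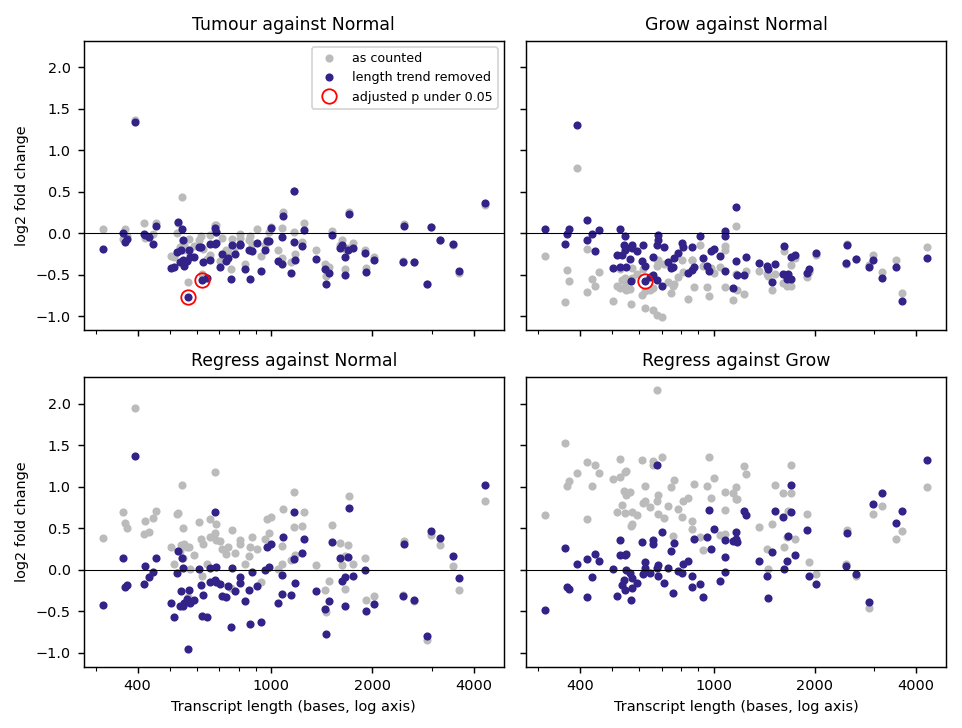
Log2 fold change of each member with a known length against transcript length (bases, log axis) in the 4 comparisons, as counted (grey) and with the length trend removed (dark), with called members ringed. In Regress against Grow the grey points centre near 0.83 and the dark ones near 0.10, and rings mark Ndufb7 and Ndufa12 only.

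Among the complex I subunits, Ndufb8 differed most between the tumour groups. This membrane arm subunit is widely used as an antibody marker of assembled complex I. It had 195, 376, 46.2 and 181 CPM in Normal 1 to 4, 52.2 to 148 with a median of 95.9 in Grow, and 509.7, 604, 647 and 45.0 in Regress 1 to 4. In Regress 1 to 3 it was above all other libraries, and in Regress 4 below them. The log2 fold change of Regress against Grow was 2.16 ± 0.60 (edgeR unadjusted p = 0.0028, adjusted p = 0.474). After removal of the trend, Regress 1 to 4 had 264, 419, 444 and 95.5 CPM against 118 to 152 in Grow and 118 to 236 in Normal, and the log2 fold change was 1.26 ± 0.33 (adjusted p = 0.402).

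The NADH-binding subunit Ndufv1 and Ndufs1 carry the first redox centres of complex I. Both have long coding sequences and varied less. Ndufv1 had 111, 86.7, 126 and 143 CPM in Normal 1 to 4, 59.0 to 101 in Grow and 91.6, 188, 176 and 70.3 in Regress. Ndufs1 had 54.9 to 90.9 CPM in Grow and 63.0, 64.6, 84.2 and 58.0 in Regress, which overlapped the Normal livers. Its log2 fold change in tumours was -0.34 ± 0.21 as counted and -0.34 ± 0.19 with the trend removed, so its estimate did not depend on the trend.

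Ndufs4, an accessory subunit of the NADH-oxidizing part, had the highest tumour estimate of complex I, 0.25 ± 0.57. Its annotated transcript has 1698 bases but its coding sequence only 525. It had 92.0, 201, 23.8 and 88.3 CPM in Normal 1 to 4 and 334, 202, 184 and 30.2 in Regress, the pattern of the short members. Removal by transcript length left that pattern in place, at 34.1 CPM in Normal 3 and 204 in Normal 2. Genes of this kind limit the correction, and a curve on coding length was fitted as an alternative. Ndufb4b, the lowest estimate of complex I, had 0 to 52.6 CPM and no known length, and is a copy of Ndufb4.

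In complex II, Sdha, the flavoprotein that oxidizes succinate, had 224, 211, 411 and 304 CPM in Normal 1 to 4, 139 to 307 with a median of 198 in Grow, and 186, 118, 143 and 194 in Regress. All Regress tumours were below all Normal livers, and Grow overlapped both. The log2 fold changes were -0.61 ± 0.26 in tumours (edgeR adjusted p = 0.226) and -0.84 ± 0.32 in Regress (adjusted p = 0.205). Sdha has 1992 coding bases and Normal 3, where short members were lowest, was its highest Normal liver.

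Sdhb, the iron-sulfur subunit, had 208, 184, 137 and 242 CPM in Normal 1 to 4 and 102 to 120.4 with a median of 109 in Grow, below every Normal liver. Regress 1 to 3 had 254, 232 and 283 CPM and Regress 4 had 71.4. The Grow log2 fold change was -0.81 ± 0.31 (edgeR adjusted p = 0.181). It was called without Regress 4, a library outside the comparison that enters the shared spread and scaling, at an edgeR adjusted p of 0.0298, against 2.26% of features called lower. After removal of the trend it was -0.65 ± 0.24 (adjusted p = 0.134), and Grow and Normal overlapped. The anchors Sdhc and Sdhd, which hold the enzyme in the inner membrane, had Regress against Grow estimates of 0.77 ± 0.32 and 1.25 ± 0.47 as counted. After removal these were 0.92 ± 0.34 and 0.71 ± 0.32, neither called.

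Of the 4 assembly factors of complex II, Sdhaf1, Sdhaf2 and Sdhaf3 varied between libraries about as much after the correction (SD of log2 CPM 0.66, 0.76 and 1.00, against 0.69, 0.70 and 0.81 before), while the SD of Sdhaf4 went from 1.04 to 0.41. The median over the 4 ran after correction from -1.11 in Regress 4 to 1.2 in Regress 1. The first 3 have annotated transcripts of 2490, 2981 and 4323 bases but coding sequences of only 354, 492 and 375. Sdhaf2, which helps to attach the flavin to Sdha, had 38.3, 51.9, 14.5 and 32.7 CPM in Normal 1 to 4 as counted, 15 to 36.2 with a median of 30.3 in Grow, and 75.7, 46.5, 46.1 and 15 in Regress, and all groups overlapped. Sdhaf4, with a transcript of 683 bases, had a Regress against Grow estimate of 0.90 ± 0.62 as counted and 0.06 ± 0.29 corrected, whereas that of Sdhaf2 was 0.68 ± 0.40 and 0.79 ± 0.42. None of the 4 was called in any comparison, and they were described after their values were seen.

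In complex III the core proteins Uqcrc1 and Uqcrc2 had long coding sequences. Uqcrc1 had 231, 173, 217 and 265 CPM in Normal 1 to 4, 113 to 182 with a median of 141 in Grow, and 176, 239, 212 and 126 in Regress. Only the highest Grow tumour, Grow 5, reached into the Normal range. Its log2 fold change in Grow was -0.63 ± 0.23, with the lowest edgeR adjusted p of any member as counted in that comparison (0.17), and -0.55 ± 0.24 with the trend removed. Uqcrc2 was at -0.53 ± 0.38. Uqcrq, a small subunit with 246 coding bases, had 248, 590.4, 116 and 249 CPM in Normal and 749.8, 467, 439 and 90.6 in Regress, so its Normal livers alone spanned most of the range.

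In complex IV, Cox4i1, the subunit through which ATP inhibits the enzyme, had 517, 853, 134 and 449.6 CPM in Normal 1 to 4. Grow tumours had 140.0 to 459 with a median of 270.4, and Regress 1 to 4 had 1072, 596, 556 and 131. After removal the ranges narrowed to 322 to 563 in Normal, 302 to 407 in Grow and 267 to 592 in Regress, and all overlapped. The tumour log2 fold change was -0.23 ± 0.50 as counted and -0.30 ± 0.22 with the trend removed. Cox5a had the lowest tumour estimate of the complex among members above the level set for naming (-0.31 ± 0.26), and Cox7b, a small subunit, the highest (0.08 ± 0.67).

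Among the paired forms, Cox6a1, Cox7a2 and Cox8a had tumour log2 fold changes of -0.07 ± 0.38, -0.02 ± 0.56 and -0.14 ± 0.29. The supercomplex factor Cox7a2l, at 0.07 ± 0.20, had 65.1 to 88.3 CPM in Normal, 57.4 to 82.9 in Grow and 62.2 to 133 in Regress. The muscle form Cox7a1 had the highest tumour estimate of all 90 members. It had 0.702, 2.10, 0.299 and 0.436 CPM in Normal 1 to 4, 0.464 to 2.78 with a median of 1.54 in Grow, and 3.35, 2.57, 7.73 and 0.282 in Regress. The groups overlapped, its log2 fold change in tumours was 1.37 ± 0.72 (edgeR adjusted p = 0.354), and it rests on 2.23 to 29.9 counts per library. Striated muscle markers summed to at most 1.80 CPM in any library. Mylpf (1.29 CPM) and Ckm (0.515 CPM) were highest in Regress 3, where Cox7a1 was also highest, and Actc1 was at 0 there. Of 5 adipocyte markers, 2 rose in tumours, against 2.32% of features called in either direction. The 5 summed to at most 6.32 CPM in Normal, 13.8 to 57.2 in Grow and 8.27 to 91.1 in Regress. Most of this was Fabp4 (3.20 to 73.3 CPM) and Cidec (0 to 17.8 CPM), both highest in Regress 2. Adipoq was at 0 in 10 libraries, Plin1 in 13 and Ucp1 in all 14. Adipoq had 7.21 CPM in Regress 3 and at most 0.354 elsewhere, and Plin1 had 0.258 in Regress 3. The part of fat or muscle cells in the Cox7a1 values was not tested.

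In ATP synthase the F1 subunits that bind nucleotides are encoded by Atp5a1 and Atp5b. Atp5b had 1119, 910.4, 1060.1 and 1297 CPM in Normal 1 to 4, 579 to 942 with a median of 815 in Grow, and 872, 955, 1007 and 566 in Regress. Normal 2 was lower than the highest Grow tumour and than Regress 2 and 3, and the other 3 Normal livers were above all tumours. The tumour log2 fold change of Atp5b was -0.42 ± 0.23 (edgeR adjusted p = 0.393) as counted and -0.46 ± 0.20 (adjusted p = 0.176) with the trend removed, the lowest of its complex by the first fit. Atp5a1 was at -0.33 ± 0.23, and its Regress against Grow difference was 0.07 ± 0.26.

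Regress against Grow estimates of the other tested ATP synthase members ran from 0.24 for Atp5d to 1.52 for Atp5md as counted, none called. Atp5l, a subunit of the membrane sector, had the highest tumour estimate of the complex, 0.44 ± 0.51, with 90.8, 35.4, 64.1 and 10.4 CPM in Regress 1 to 4. After removal it was 0.05 ± 0.36. Atp5e had 727 CPM in Regress 1 and 53.8 in Regress 4, and its Regress against Grow estimate went from 1.30 ± 0.69 to 0.13 ± 0.26. The estimate for this short subunit thus came close to that of Atp5a1 once the trend was removed, a comparison of estimates that was not tested.

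Other genes of the mitochondrion moved in part with the members. As counted, Regress against Grow had a median of 0.58 over 78 mitochondrial ribosomal proteins (76 higher) and 0.73 over 76 cytosolic ribosomal proteins (75 higher), which are also short and are no part of the chain. Over 16 enzymes of the citric acid cycle it was -0.04. None of these was called in that comparison, against 0% of features. After removal the medians were 0.26, 0.07 and 0.01. In Grow against Normal the trend-removed medians were -0.23, 0.08 and -0.18, beside -0.30 for the respiratory chain genes. Of 31 other assembly factors, 1 was called with the trend removed, against 2.17% of features called lower in tumours and 1.83% in Grow. It was Ecsit, an assembly factor of complex I, lower in tumours (-0.78 ± 0.19, edgeR adjusted p = 0.031) and in Grow (-0.80 ± 0.21, adjusted p = 0.0417). The mobile carrier Cycs and the complex III cytochrome Cyc1 had tumour estimates of -0.27 ± 0.38 and -0.29 ± 0.30 as counted, neither called.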

How the data were processed

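The authors deposited 1 table of estimated counts with decimals for 35230 RefSeq transcripts, per the file headers. Among tools and builds, Salmon 0.3.1, edgeR 3.14.0 and mm9 are listed, per the submitters' processing notes. The library kit, TruSeq RNA v2 (per the labels' protocols), does not mark strand, so overlapping genes cannot be told apart. The deposited table has 1 further column without values, which was not used. Transcripts were matched to symbols through RefSeq of GRCm38.p6 or GENCODE M21, and 9005 rows without a match stayed as features of their own. Lengths and GC content came from GENCODE M21, and promoters from RefSeq, of another build than the submitters'.

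Transcripts of a gene were added up and the sums rounded. edgeR 4.0.16 (R 4.3.3, limma 3.58.1) fitted 3 groups over 14 samples with TMM factors, filterByExpr and robust quasi-likelihood dispersions (biological coefficient of variation 0.484). Adjusted p is Benjamini-Hochberg over all tested features, with calls under 0.05. An SE was obtained from each log2 fold change and its F statistic (size over root F). Log2 CPM used a prior count of 2. The length trend was a lowess curve (span 0.5, 3 iterations) per library on log2 transcript length, removed as an offset.

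Members, lists and alternatives were chosen with earlier results of these data known. Named genes were, per complex, the highest and lowest tumour estimate above a mean log2 CPM of 1, 12 core subunits, the paired isoforms and any member called as counted (0 were). Others were chosen after their values were seen. Alternatives were DESeq2 1.42.0, limma-voom, other scalings and filters, a replicate block and leaving out samples. The coding length and combined length and GC fits were added after seeing the data. Grow 3 and Grow 4 were the most similar pair but differed beyond counting noise and were kept apart. The code was tested on simulated data.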

Additional observations from a re-analysis of the deposited data

Results flagged for a closer look

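Cox5b, a subunit of complex IV, had 11.6 CPM in Regress 1, far from the other Regress tumours, of which the nearest had 2.37 and the lowest 1.13. It was the only 1 of 69 sets of values tested in groups of 4 or more samples in which a sample lay apart by Dixon's criterion, and chance alone marks about 1 in 20. The gene has at most 58.8 estimated counts in a library.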

How the results depend on the processing

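As counted, 0 members were called in any comparison, against 0% to 2.32% of features. This held with DESeq2 size factors, library totals, a lower count filter, Grow 3 and 4 summed, or without Normal 4 and Regress 2. It also held with limma-voom, against 0% to 1.03% of features. The shares of features called in the other fits of this list are not given here. DESeq2's test called 1 in Grow. With the length trend removed 2 (tumours), 1 (Grow), 0 and 0 were called, with coding length 1, 0, 0 and 0, and with length and GC 2 (Ndufa12 and Ndufaf1), 0, 2 (the same genes) and 0. Leaving out 1 sample gave 0 to 1 calls in Grow (1 without Regress 4) and 0 to 17 in Regress against Grow (17 without Regress 4). With the trend removed as well it gave 0 to 9 in tumours, 0 to 1 in Grow, 0 to 7 in Regress (9 and 7 without Regress 1) and 0 to 3 in Regress against Grow. The tumour median as counted ran from -0.35 without Normal 3 to 0.22 without Normal 2, and was 0.03 without Regress 4. The Regress median turned from 0.30 to -0.16 (length), -0.084 (coding length), -0.13 (length and GC), -0.18 (length with replicate block) and -0.18 (without Regress 1). With 1 sample left out it ran from -0.18 to 0.65 as counted and from -0.37 to -0.063 with the trend removed, being -0.15 without Grow 1, -0.15 without Grow 3, -0.15 without Normal 2, -0.096 without Normal 4, -0.14 without Regress 3 and -0.063 without Regress 4. The Regress against Grow median ran from 0.40 to 1.12 as counted and from -0.050 without Regress 1 to 0.24 with the trend removed. The Grow median was negative in every fit run, from -0.75 to -0.22 with 1 sample left out. The cause of these shifts was not tested. Library totals in place of TMM moved the median of all features by -0.12 in Regress and by -0.20 in Regress against Grow, and members stood 0.18 and 0.67 above it. The replicate block used numbers shared across groups, whose 12 pairs had correlations of -0.52 to 0.20, 2 of them over 0.1. These were taken over all tested genes with the length trends left in, so they cannot decide whether the numbers pair the samples. The block called 0 members, with medians of -0.07, -0.36, 0.20 and 0.57, and of -0.19, -0.33, -0.18 and 0.10 with the trend removed. Of 902 refitted tumour estimates of the 23 tested genes named by rule, which do not include Ndufb7 and Ndufa12, 89 changed sign while uncalled, and none became called. Cox5b, Cox7a1, Sdhaf3 and the 8 filtered members are limited by low counts.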
